A study of Mus musculus with 6 samples.

Results

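The DNA described here is the distal part of mouse chromosome 14, from 60000000 bp (mm10) to the last window, which ends at 124775481 bp, and within it a stretch of 7.2 Mb that had a low copy level in 1 of the 6 deposited profiles. It comprised 6097 of the 237602 windows of the tables, with a median length of 10040 bp. The low segment held 688 of these windows, from 92593101 to 99795592, with 3062 windows in the flank below it and 2347 in the flank above it. The segment was chosen from the measured values: it is the run of 100-kb bins, from 92600001 to 99800000, whose timing scores differed by 1 unit or more between the highest and the lowest profile, with profile D as the lowest. That range was 1.01 to 2.53 score units in the bins of the segment and 0.0990 to 0.941 units in the other bins from 60 Mb. The last bin outside on the lower side ranged over 0.941 units and the first inside over 1.17. On the upper side the last bin inside ranged over 1.01 units and the first outside over 0.736. Because these values chose the segment, the lower level of profile D there is a description and no test was made of it.

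The study sequenced genomic DNA of growing cultures of HoxB8-immortalised mouse myeloid cells selected in GM-CSF, a cytokine that sustains myeloid progenitors, to ask whether replication timing differs between genotypes. The groups were 3 samples of genotype Recql4 -/- Klhdc3 -/-, which lack a RecQ helicase and a substrate receptor of a ubiquitin ligase, and 3 WT samples, all of the same kind of cell line. Per the labels, cells divided in 15 to 18 hours, over 25% of a culture was in S phase, and sequencing aimed at 30-fold coverage with paired reads of 150 bp. The sources used here do not say whether the 3 samples of a genotype were separate lines or cultures. The value columns carried no sample names, so they are called profiles A to F in column order, with no genotype attached, and D is the fourth of them. Which profiles are replicates is unknown, and SDs below describe the spread among profiles only.

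A cell in S phase has already copied its early replicating DNA and has not yet copied its late replicating DNA, so in an unsorted culture early DNA is present in more copies. Read depth along the genome therefore carries the order of replication, and it also carries any gain or loss of chromosomal DNA in the line. Gene-poor DNA that holds long neuronal genes commonly replicates late, while DNA dense in broadly used genes commonly replicates early. The first table held a copy level per window, here the raw level, with an autosomal median of 1.97 in profile D and of 1.96 to 1.98 in the other profiles. The second held a smoothed timing score scaled in each profile to a mean of 0 and to an SD of 1 across autosomes, so that earlier DNA scores higher.

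The segment is poor in genes, and 9 protein-coding genes overlap it. The promoters of 4 of them, in order along the chromosome, show the range of sequence in it, with 1 gene of its lower part, 1 of its latest DNA and 2 of its upper end. Each is 300 bases, from 250 before to 50 after the annotated start, read 5′ to 3′ on the gene's strand from RefSeq for GRCm38.p6, with every CG dinucleotide in capitals.
Pcdh9, chr14:93890630-93890929, minus strand: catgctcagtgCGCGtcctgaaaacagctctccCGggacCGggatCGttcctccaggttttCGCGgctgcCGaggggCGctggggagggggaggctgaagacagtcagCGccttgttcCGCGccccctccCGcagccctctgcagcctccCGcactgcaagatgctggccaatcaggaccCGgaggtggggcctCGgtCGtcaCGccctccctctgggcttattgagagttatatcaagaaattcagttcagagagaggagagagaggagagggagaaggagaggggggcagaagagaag
Spertl, chr14:95881004-95881303, plus strand: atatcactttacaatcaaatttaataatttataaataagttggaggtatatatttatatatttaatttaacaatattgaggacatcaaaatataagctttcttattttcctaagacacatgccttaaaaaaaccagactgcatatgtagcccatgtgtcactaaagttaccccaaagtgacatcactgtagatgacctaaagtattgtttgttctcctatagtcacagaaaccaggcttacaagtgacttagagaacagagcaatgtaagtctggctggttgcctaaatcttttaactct
Mzt1, chr14:99046087-99046386, minus strand: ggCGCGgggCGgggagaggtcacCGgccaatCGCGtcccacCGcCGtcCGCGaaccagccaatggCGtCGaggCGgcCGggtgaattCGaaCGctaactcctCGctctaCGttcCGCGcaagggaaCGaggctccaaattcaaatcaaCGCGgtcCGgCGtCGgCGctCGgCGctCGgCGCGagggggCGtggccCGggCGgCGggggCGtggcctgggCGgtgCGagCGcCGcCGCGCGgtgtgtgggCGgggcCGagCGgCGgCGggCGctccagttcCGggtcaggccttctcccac
Dis3, chr14:99099721-99100020, minus strand: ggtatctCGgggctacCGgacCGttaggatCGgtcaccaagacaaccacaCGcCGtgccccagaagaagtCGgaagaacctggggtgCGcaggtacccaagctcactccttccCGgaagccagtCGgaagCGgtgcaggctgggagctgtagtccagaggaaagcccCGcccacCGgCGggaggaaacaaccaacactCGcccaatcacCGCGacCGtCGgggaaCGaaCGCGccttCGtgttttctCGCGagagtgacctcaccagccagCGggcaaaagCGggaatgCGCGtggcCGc

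RefSeq promoters were matched for 7 of the 9 genes, all but Bora and Klf5. The Mzt1 promoter held 51 CG dinucleotides, more than 99.3% of the 27025 promoters in the table, and had a GC content of 74.7%. The Dis3 promoter held 30, more than 88.5% of promoters. Those of Pcdh9, Pibf1 and Dach1 held 18, 17 and 13 and that of Klhl1 held 5, against a median of 7 over all promoters. The Spertl promoter held none and had a GC content of 31.7%, whereas 94.2% of all promoters held at least 1 CG. Among the 7 matched promoters, the 2 with the most CG thus lay at the upper end of the segment, and the one without any lay near its middle.

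Profile D had less DNA over the segment than every other profile. Its raw level averaged 1.61 there, against 1.83, 1.84, 1.85, 1.81 and 1.83 in profiles A, B, C, E and F. Over the flanks D averaged 1.91, against 1.93, 1.94, 1.95, 1.91 and 1.90 in the same profiles. The flanks of D thus lay within the range of the others and its segment lay below it. Relative to the mean of the other 5 profiles, D stood at 0.882 in the segment and at 0.991 in the flanks, and the ratio of these, the copy ratio, was 0.889, a step of -11.1%. Set against A, B, C, E and F singly, the copy ratio of D was 0.892, 0.891, 0.892, 0.894 and 0.878 (mean 0.889 ± 0.00640, SD, n = 5 divisors). D is the numerator in each, so this SD shows the spread of the divisors and not that of a repeated step. The same ratio for each other profile against the rest, which includes D, ran from 1.02 to 1.04. For scale, the X chromosome in profile D had a median raw level of 0.935, which was 47.6% of the autosomal median, so the step at the segment was far smaller than that between X and the autosomes. The level is an average over all cells of a culture, so a loss in some cells and a smaller change in every cell cannot be told apart.

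The name distal loss did not match the data in 1 respect, since the low level ended well before the chromosome end. Above the segment, the 2347 windows up to 124775481 returned to a mean of 1.86 in D, against 1.89, 1.90, 1.91, 1.86 and 1.85 in A, B, C, E and F. Below it, D averaged 1.95, against 1.97, 1.97, 1.97, 1.94 and 1.94. The stretch is therefore called the low segment here, with a flank on each side whose mean level in D was within the range of the others. The windows just outside the lower border were below the level of their flank, as described below.

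**Figure D1:**
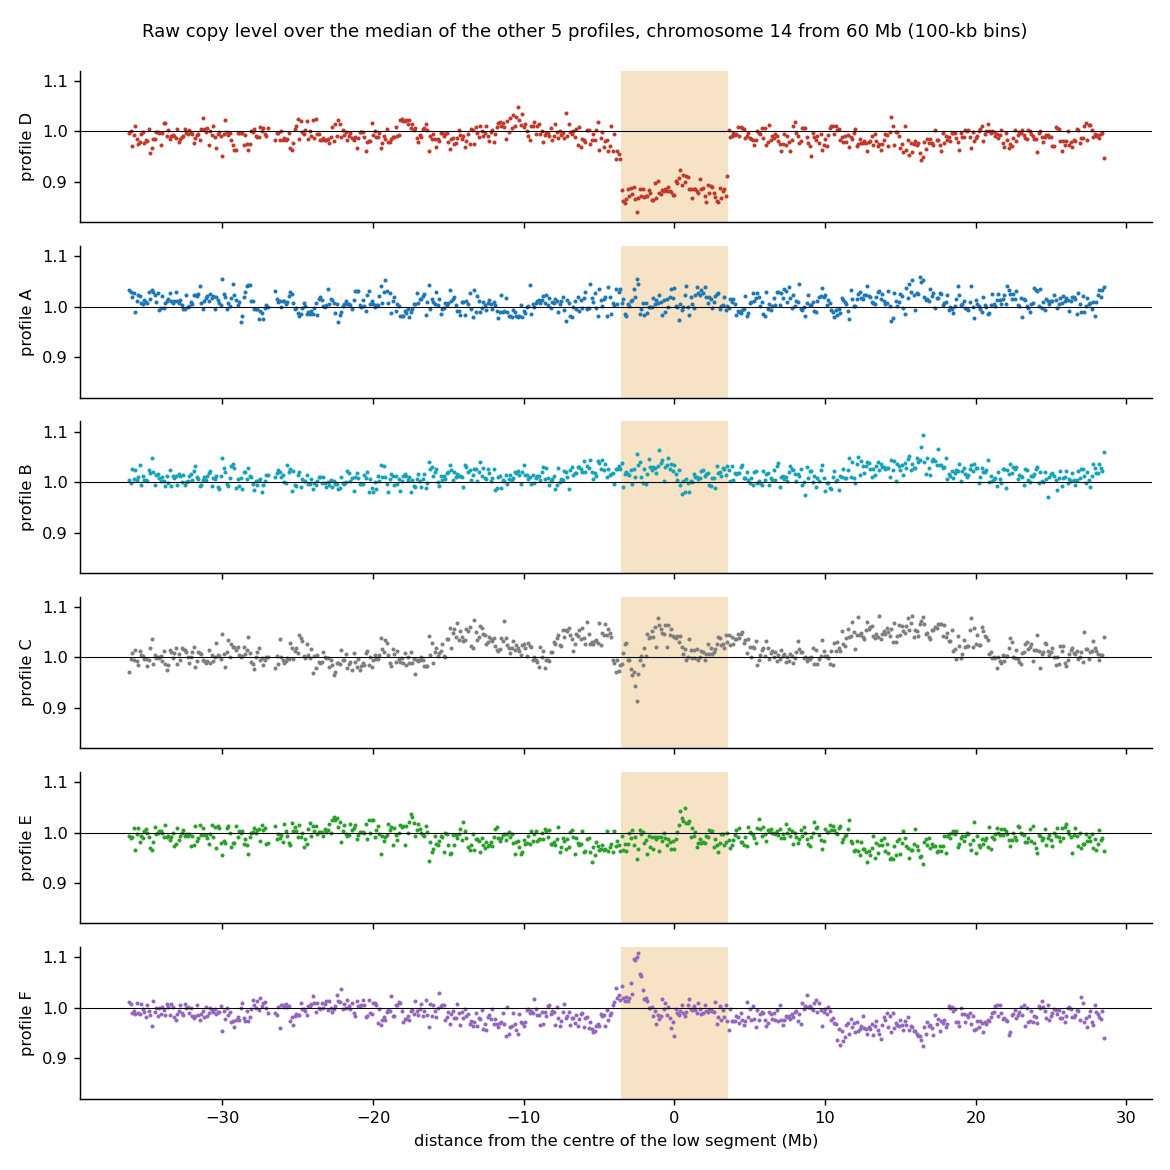
Ratio of the raw level of each profile to the median of the other 5 in 100-kb bins (points), against distance from the centre of the low segment in Mb, with the segment shaded and 1 panel for each profile, D on top. The bins of D lie between 0.840 and 0.945 in the shaded segment and between 0.943 and 1.05 outside it, and no other panel steps down at both edges.

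The plot of the ratio along the chromosome shows 1 step down and 1 step up in profile D. In the segment, 72 of 72 bins of D had a raw level under 0.95 times the median of the other profiles, against 2.16% of all autosomal bins of D, a count that the choice of the segment fixes. In the flanks, 4 of 572 bins of D were under 0.95. One of them, from 92300001 to 92400000, lay just below the segment at 0.946. The others began at 112600001, at 112700001 and at 124700001, with ratios of 0.943 or more. Of the other profiles, A and B had 0 bins under 0.95 in the segment, C had 2, and E and F had 1 each. The background over all autosomal bins was 0.172% in A, 0.107% in B, 0.121% in C, 2.65% in E and 1.5% in F. The level of D inside the segment was even: over its 6 full megabases the ratio lay between 0.872 and 0.897, and over 57 full megabases outside it lay between 0.971 and 1.02.

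The borders were located from the windows by fitting 3 levels, flank, segment and flank, to the log2 ratio of D over the median of the other profiles. The first window inside the segment began at 92711019 and the last ended at 99784959, which gave 674 windows and a length of 7.07 Mb. The fitted ratios were 0.880 in the segment, 0.993 below it and 0.988 above it. The fit accounted for 53.2% of the variance of this log2 ratio of D. The same fit to the log2 ratio of each other profile accounted for 1.14% in A, 3.03% in B, 10.2% in C, 3.17% in E and 9.66% in F, with breaks elsewhere. Inside the fitted borders, 90% of the windows of D had a ratio between 0.831 and 0.936, and outside them 90% lay between 0.935 and 1.05. These ranges touched at their edges, so a single window near either limit could not be placed by its own ratio.

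The upper border was a single step, whereas the lower one was a step from a level already below that of its flank. The 25 windows just inside the upper border had a mean ratio of 0.882 (means of 5 windows from 0.857 to 0.893), and the 25 just outside had 0.991 (0.970 to 1.01). The ratio averaged 0.893 over the last 5 windows inside and 1.00 over the first 5 outside. With each other profile alone as the divisor the border fell on 99784959, except with B, where it fell 10 kb lower. At the lower border the 25 windows inside had a mean ratio of 0.866 (0.838 to 0.886) and the 25 outside had 0.952 (0.941 to 0.966). Those outside windows were still below the flank as a whole, at 0.941, 0.938, 0.969, 0.976 and 0.944 of A, B, C, E and F. The ratio averaged 0.959 over the last 5 windows outside and 0.886 over the first 5 inside. Further out, it fell from 0.998 in the 5 windows ending at 92277550 to 0.963 in the next 5. With single divisors the lower border lay between 92593101 and 92721019, a span of 128 kb. The lowest position came with A, and with B, C, E and F the border lay from 92660958 to 92721019. The windows next to it overlap a stretch in which profile F, too, stood apart from the rest, as described below, and the part this has in the lower border was not tested.

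**Figure D2:**
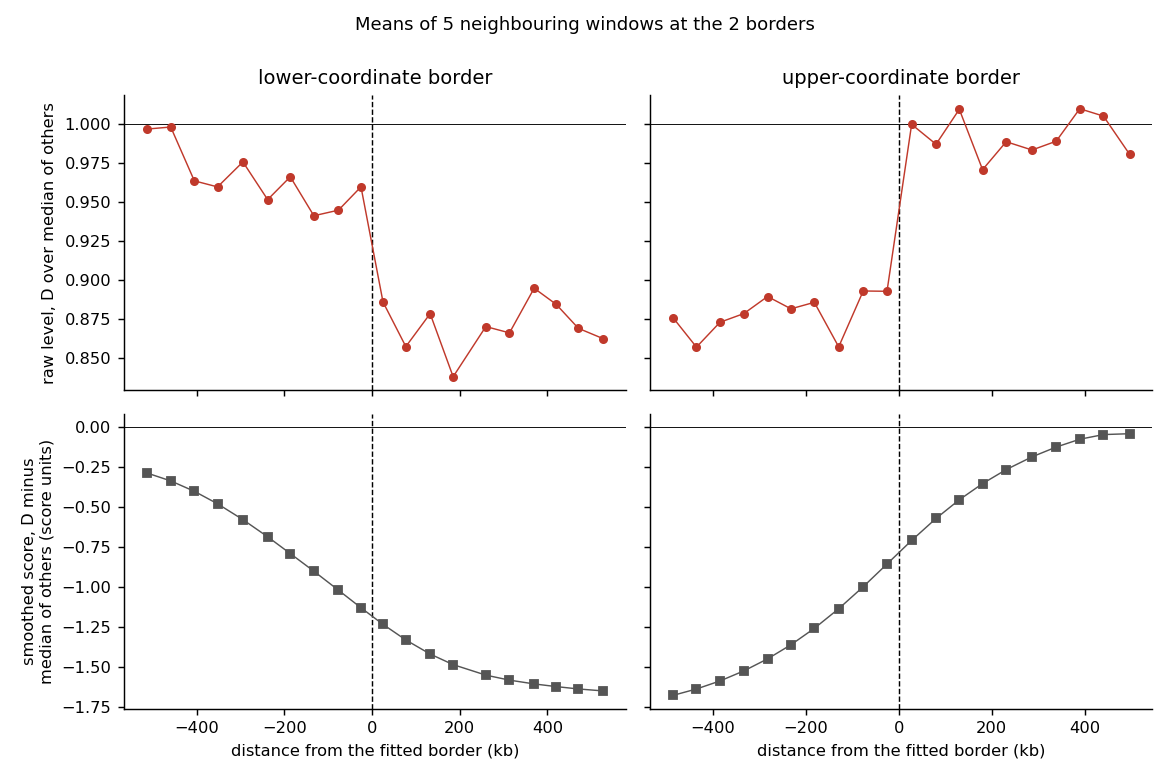
Means of 5 neighbouring windows against distance from each fitted border in kb (dashed line at 0): the raw level of D over the median of the other profiles above, and the smoothed score of D minus their median below. The raw ratio changes within 1 step at the upper border, from 0.893 inside to 1.00 outside. At the lower border it changes from 0.886 inside to 0.959 outside, whereas the score climbs gradually on both sides.

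The smoothed table spread the same steps. Between 10% and 90% of its change, the score difference of D took 453 kb at the upper border. At the lower border it was already past 10% at the first window searched, at 91719091. The 1080 kb from there to 90% is thus set by the range searched and is not a measured width. The midpoint of the score difference lay 15.0 kb from the raw border at the upper end and 208 kb from it at the lower end. The plot of both tables at the borders shows that scores of windows near an edge mix both sides.

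The score of D in the segment averaged -2.49 (windows from -3.41 to -1.59), against -0.95, -0.99, -1.13, -0.997 and -0.90 in A, B, C, E and F. The mean of these 5 was -0.994 ± 0.0838 (SD, n = 5 profiles), and D minus that mean was -1.50. In the flanks D averaged -0.375, against -0.334 ± 0.0752 in the others, a difference of -0.0415. The mean score of the segment was thus below 0 in every profile and lowest in D, while the flanks of D were within the spread of the others. The score carries copy level as well as timing, and the part of each in the low score of D was not tested.

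The order of timing inside the segment was kept in profile D. All profiles showed a trough and, in the upper part, a crest, and all but C showed a shoulder in the lower part. The trough was the bin from 95300001 in D at -3.41, and the same bin in A, B, C and E at -1.93, -1.81, -1.83 and -1.93, while in F it was the bin before at -1.94. No autosomal bin of D scored below its trough, whereas in the others 1.27% (A) to 3.15% (B) of autosomal bins scored below theirs. The crest of D was the bin from 98000001 at -1.75, a position shared with A, B and F, and crest exceeded trough by 1.66 units in D and by 1.96, 1.65, 1.64, 1.68 and 1.67 in A, B, C, E and F. The height of the profile inside the segment was therefore within the range of the others, and its level was lower.

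Across the 72 bins of the segment the score of D had a Pearson correlation of 0.952 with the median of the other profiles. Single profiles correlated with D from 0.830 (F) to 0.962 (E), and the 10 pairs among the other profiles from 0.648 to 0.989 with a median of 0.900. In the 572 flank bins the correlation of D with the median was 0.991. These bins are neighbours on 1 chromosome and smoothed, so the correlations are a description over bins, which are not replicates. After D was moved up by its mean offset of -1.52 over the 69 bins between the fitted borders, 53 bins, or 76.8%, fell inside the range of the others. For a profile moved in the same way the count was 51 in A, 47 in B, 23 in C, 43 in E and 15 in F. D was left out of the range for these profiles, so their range covered fewer profiles than that used for D. A narrower range holds fewer bins, and these counts are therefore not directly comparable with that of D.

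**Figure D3:**
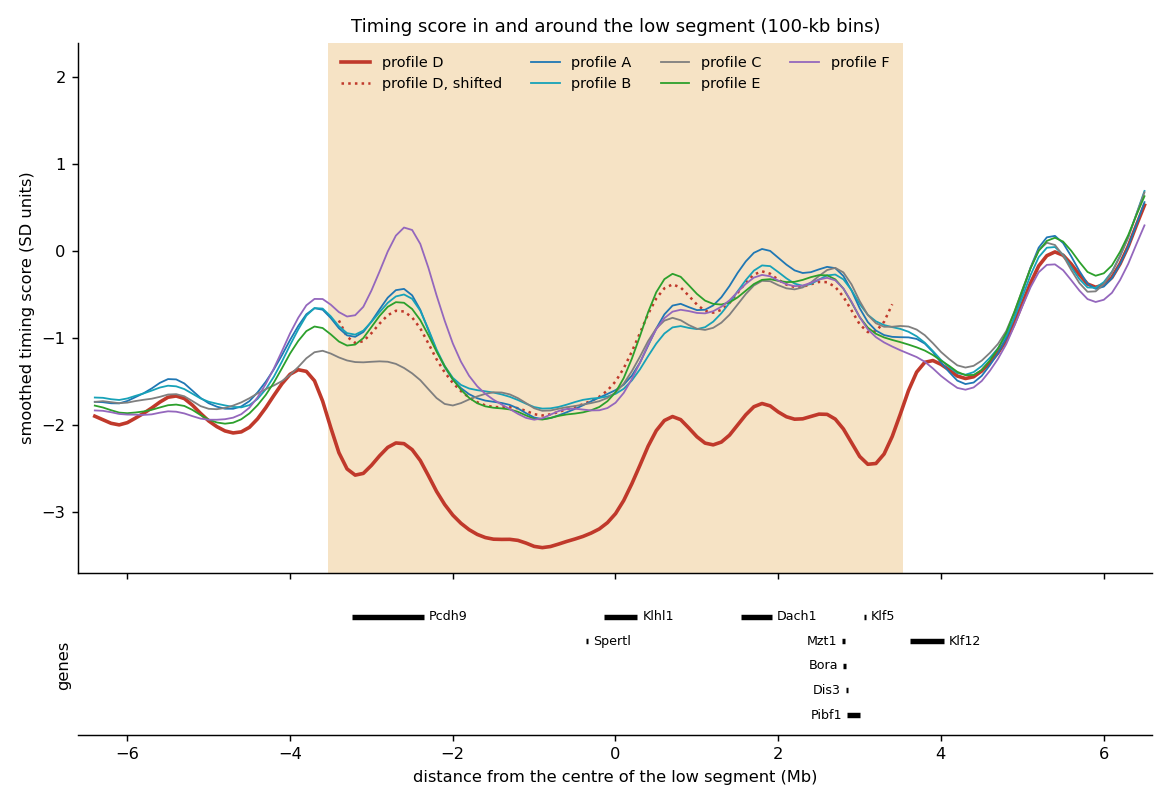
Smoothed timing score in 100-kb bins against distance from the centre of the low segment in Mb, for D (thick line), D moved up by its mean offset (dotted) and A, B, C, E and F, with the segment shaded and the genes drawn below as bars. D lies below the others throughout the shaded segment, with its trough at -3.41, and joins them outside it.

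The step in raw level was also measured in the later and the earlier bins of the segment. In the 23 bins of the segment that were latest in the other profiles, D was at 0.881 ± 0.0112 of the others (raw level 1.52 against 1.72). In the middle 23 bins it was at 0.885 ± 0.0173 (1.62 against 1.84), and in the earliest 23 at 0.880 ± 0.0160 (1.69 against 1.92, SD over bins in each case). The 3 means lay between 0.880 and 0.885, and their difference was not tested. A straight line of D on the median of the others had a slope of 0.868 over 69 segment bins and of 0.980 over 572 flank bins. In the segment the slope of A, B, C, E and F on the median of the rest, here without D, was 1.18, 0.844, 0.661, 1.04 and 1.11. The slope of D lay inside their range.

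In the shoulder of the lower part the other profiles also differed among themselves. Its highest bin scored -2.20 in D, against -0.43, -0.50, -0.58 and 0.27 in A, B, E and F, while C had no peak there. The shoulder holds Pcdh9, a protocadherin gene of cell adhesion in the nervous system, which spans 879 kb from 93013700 to 93892834 and begins 303 kb above the lower border. Pcdh9 had a raw level of 1.65 in D, against 1.89, 1.89, 1.83, 1.85 and 1.97 in A, B, C, E and F, over 86 windows. Its score was -2.25 in D, against -0.52, -0.59, -1.27, -0.63 and 0.011. D was lowest by both measures, which the choice of the segment fixes, F was highest by both, and C was lowest among the others. The 3-level fit to profile F picked out this stretch, from 92267551 to 94453518 (2.19 Mb), which crosses the lower border of the segment. Its mean score was -2.32 in D, against -0.87, -0.88, -1.39, -0.98 and -0.48 in A, B, C, E and F.

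The middle of the segment holds 2 genes in its latest DNA. Spertl, from 95881254 to 95882780, lies in 1 window, with a raw level of 1.49 in D, against 1.69, 1.79, 1.80, 1.66 and 1.71 in A, B, C, E and F. Its score was -3.27 in D, against -1.76, -1.70, -1.76, -1.85 and -1.82, the lowest of the 9 genes in each profile. Klhl1, a brain-expressed Kelch-like gene of 414 kb from 96105265 to 96519034, had a raw level of 1.54 in D, against 1.74, 1.75, 1.79, 1.71 and 1.70. The Klhl1 score was -2.92 in D, against -1.56, -1.61, -1.56, -1.52 and -1.67, so that all 5 other profiles lay between -1.85 and -1.52 at both genes.

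The upper part holds the transcription regulators. Dach1, a dachshund-family corepressor gene in development, spans 383 kb from 97786846 to 98169765 under the crest. It had a raw level of 1.75 in D, against 2.00, 1.97, 1.96, 1.93 and 1.95 in A, B, C, E and F, and a score of -1.77 in D, against 0.0026, -0.20, -0.37, -0.36 and -0.29. Dach1 was the earliest of the 9 genes in D and close to the autosomal mean of 0 in A. Klf5, a Krüppel-like zinc finger factor of epithelial growth, lies from 99298691 to 99313412 and ends 472 kb below the upper border. It had a raw level of 1.62 in D, against 1.83, 1.96, 1.88, 1.83 and 1.76. The Klf5 score was -2.43 in D, against -0.76, -0.69, -0.67, -0.84 and -0.85.

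Between them lie 4 genes of basic cell functions in a cluster, as overlapping pairs. Mzt1, which encodes a small subunit of gamma-tubulin complexes, ends at 99046453, and Bora, an activator of the mitotic kinases Aurora A and Plk1, begins at 99046377. Dis3, a catalytic subunit of the RNA exosome, ends at 99099780, and Pibf1, which encodes a centrosomal protein, begins at 99099424. The raw level of Mzt1 was 1.77 in D, against 2.05, 2.04, 2.05, 2.01 and 2.01 in A, B, C, E and F. That of Dis3 was 1.86 in D, against 2.12, 2.09, 2.12, 2.06 and 2.03, the highest of the 9 genes in each profile. Bora, with the lowest ratio of the 9, had 1.70 in D, against 2.01, 2.00, 2.03, 1.98 and 1.95 in the same profiles. Among the 7 promoters read, those of Mzt1 and Dis3 held the most CG dinucleotides. The Mzt1 score was -2.03 in D, against -0.27, -0.31, -0.23, -0.42 and -0.42, and that of Pibf1 was -2.24 in D, against -0.50, -0.48, -0.42, -0.63 and -0.62. In each of these genes D lay below all 5 others, which the choice of the segment by its low score in D fixes and which is no added result. The sign of the late score at Mzt1, Bora and Dis3 held on the smoothed scale only: on the raw level of their shared bin, rescaled to a mean of 0 and an SD of 1, their median over the 6 profiles was 0.150.

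Over the 9 genes the raw ratio of D to the median of the others lay between 0.851 (Bora) and 0.892 (Dis3), with a median of 0.870. It lay between 0.953 and 1.09 for the 177 genes with a raw level in the flank below (median 0.990) and between 0.938 and 1.03 for the 59 in the flank above (median 0.985). The lowest gene of the upper flank was Spry2, an inhibitor of growth factor signalling, measured in 1 window, with 1.71 in D against 1.87, 1.83, 1.80, 1.82 and 1.80. The ratios of single genes rest on as few as 1 window, and the ratio of 1.09, of Pcdh20, also came from 1 window.

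**Figure D4:**
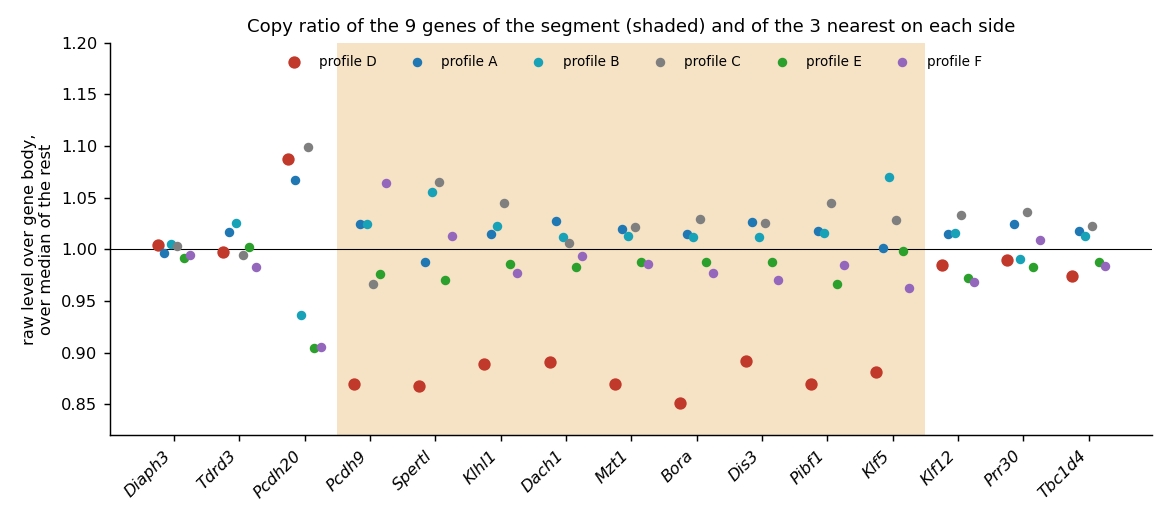
Raw level over the gene body relative to the median of the other 5 profiles, 1 point for each profile, for the 9 genes of the low segment (shaded) and the 3 nearest protein-coding genes on each side, in chromosomal order. The points of D lie between 0.851 and 0.892 for the shaded genes and between 0.974 and 1.09 for the 6 genes beside them.

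The nearest genes outside are unlike in distance. Below the segment the nearest is Pcdh20, a protocadherin gene that ends at 88471396, 4240 kb below the lower border. Its score was -1.42 in D, against -1.32, -1.48, -1.36, -1.43 and -1.45 in A, B, C, E and F. Above, Klf12, a Krüppel-like repressor gene from 99866181 to 100285891, begins 81.2 kb above the upper border. Its raw level was 1.81 in D, against 1.83, 1.84, 1.87, 1.78 and 1.78, a ratio of 0.985, and its score was -1.26 in D, against -1.08, -1.07, -0.98, -1.15 and -1.29. At both genes D lay within the range of the others, and the full level was thus regained within the short gap before Klf12. The plot of gene ratios shows this change between Klf5 and Klf12.

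The segment was the poorest in genes of the 3 stretches, with 1.25 protein-coding genes per Mb, against 5.61 per Mb in the flank below and 2.36 in the flank above. Of the 9 genes, 7 scored below 0 in each profile, against 15.5% of autosomal protein-coding genes, a count in which the low scores of D are fixed by the choice of the segment. The exceptions were Pcdh9, above 0 in F, and Dach1, above 0 in A. In the flank below, 166 of 177 genes with a score were above 0 in each profile, against 76.2% of autosomal genes, and in the flank above 38 of 59 were. Besides these genes the annotation places 8 lncRNA genes, 23 pseudogenes, 5 snRNA genes and 5 snoRNA genes in the segment, and 0 of the 19 miRNA genes from 60 Mb to the end.

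Gene lists by function describe what else the chromosome carries from 60 Mb. Of 12 myeloid and immune genes, 12 scored above 0 in each profile, and none lies in the segment. Their median score was 1.08, with Lpar6, a lysophosphatidic acid receptor gene, earliest at 1.67 and Epsti1, an interferon-induced gene, latest at 0.45. Most of the 12 lie in the flank below, where 166 of 177 genes with a score were above 0 in each profile. Lpar6 lies within Rb1 of the same list, so the members are not all separate counts. Of 15 housekeeping genes, 10 were above 0 in each profile, with Itm2b, which encodes a membrane protein, earliest at 1.54 and Dis3 latest at -0.41, as medians over the 6 profiles. Of 7 cell division genes with a score, 3 were above 0 in each profile (earliest Cdca2, a mitotic chromatin protein gene, at 0.68) and 4 were below it, among them the 3 in the segment, with Pibf1 latest at -0.56. Beside these counts stand the 76.2% of autosomal genes above 0 in each profile and the 15.5% below 0 in each.

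The other lists hold developmental and neuronal genes. Of 12 transcription factor genes, 7 were above 0 in each profile, against 76.2% of autosomal genes. The 12 ran from Sox21, a neural factor gene, at 1.00 to Klf12 at -1.12. All 3 genes for SLITRK proteins, neuronal synapse organisers, were below 0 in each profile, from Slitrk5 at -1.72 to Slitrk1 at -1.91. All lie in the flank above, where 13 of 59 genes were below 0 in each profile, against 15.5% of autosomal genes. Slitrk1 scored -2.07 in D, against -1.71, -1.80, -1.80, -2.02 and -2.03 in A, B, C, E and F. In E and F this was below their trough in the segment, and in A, B and C it was above theirs. Of 4 protocadherin genes, Pcdh8 was earliest at 0.82 and Pcdh17 latest at -1.65. The glypican genes Gpc6 and Gpc5, for heparan sulphate proteoglycans, stood at 0.060 and -1.23, and Gpc6, a long gene, scored -1.15 at its lower coordinate. Of the members of all lists, the segment held 1 protocadherin, 3 cell division, 2 transcription factor and 1 housekeeping gene.

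**Figure D5:**
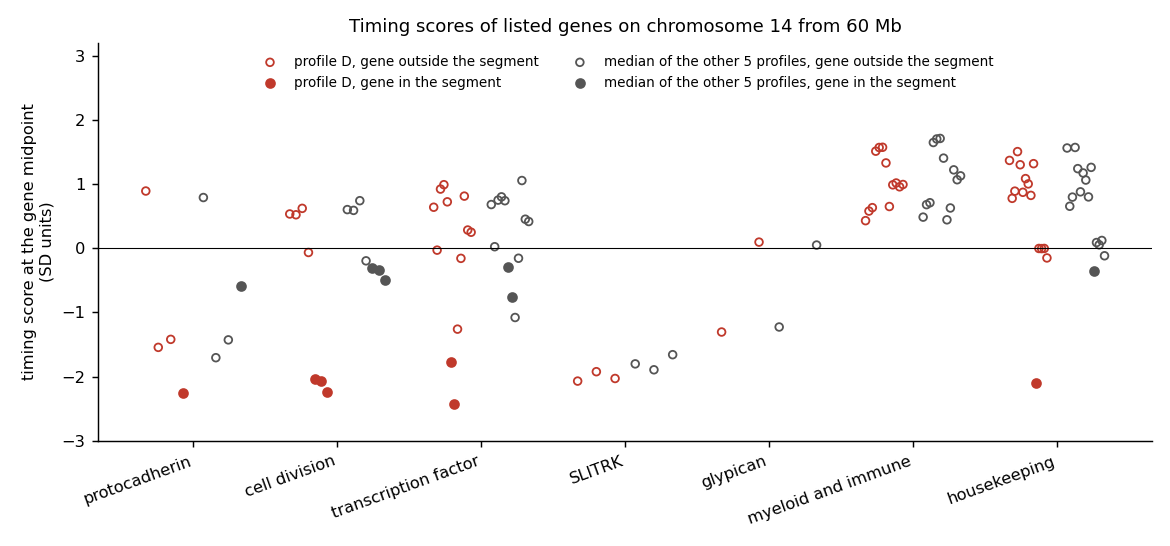
Timing score at the gene midpoint for each member of 7 gene lists on chromosome 14 from 60 Mb, for profile D (red, left) and for the median of the other 5 profiles (grey, right), with genes of the low segment as filled circles. Filled red circles lie at -1.77 or lower, below the filled grey circles, while open circles of D and of the others cover like ranges.

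The flanks also hold a pair of miRNA clusters of blood cell growth, whose mature sequences are given with the seed (bases 2 to 8) in capitals, from RefSeq for GRCm38.p6, because they mark regulators on this chromosome that lie outside the low segment. miR-15a and miR-16 share a seed and restrain growth, and miR-17 and miR-20a share another and promote it.
mmu-miR-15a-5p: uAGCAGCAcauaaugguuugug
mmu-miR-16-5p: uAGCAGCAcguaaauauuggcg
mmu-miR-17-5p: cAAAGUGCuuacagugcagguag
mmu-miR-20a-5p: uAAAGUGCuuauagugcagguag

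Within 50 kb of Mir15a and Mir16-1 (61631936 to 61632096) the raw level was 2.17 in D, against 2.25, 2.24, 2.19, 2.16 and 2.22 in A, B, C, E and F, over 9 windows. The score there was 1.23 in D, against 1.43, 1.51, 1.50, 1.22 and 1.09. Around the cluster from Mir17 to Mir92-1 (115043684 to 115044496) the raw level was 1.88 in D, against 1.97, 1.94, 1.95, 1.87 and 1.88, over 10 windows, and the score was -0.91 in D, against -0.70, -0.70, -0.87, -0.77 and -0.90. D lay within the range of the others in raw level at both clusters, the first in early DNA and the second in late DNA, with ratios of 0.977 and 0.973.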

How the data were processed

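DNA of 6 samples was sequenced whole. The authors deposited 2 tables without headers, over the same windows, each with 6 value columns. The first table's score is a copy level with autosomal medians near 2, and the deposited score of the second has mean 0 and SD 1 over the autosomes. The build was mm10 and Picard 2.23.9 was used, per the submitters' processing notes. The aligner, GC correction, filters and smoothing settings are not given in the sources used here, nor is the depth, so no counting interval was computed. Smoothing mixes windows across a sharp step, and scaling by profile lets large altered stretches shift its scores.

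No label ties a column to a sample, so the profiles are unassigned, no groups were compared and no test was run. The members and gene lists were chosen with earlier results of these data known.

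Windows were averaged into 100-kb bins (at least 3 valued windows in each profile) with Python 3.11.15, numpy 2.4.6 and pandas 2.3.3. Borders came from a least-squares fit of 3 levels. The fit was run on simulated steps with the same timing in all profiles, so that run does not bear on a border where the profiles differ. Genes (RefSeq, GRCm38.p6) took the score of the window nearest their midpoint within 50 kb and the mean raw level of overlapping windows. Named genes are all protein-coding genes of the segment, its nearest neighbours, and the earliest and latest member of each list by median score over the profiles. Spry2 was named after its value was seen. Alternatives changed the divisor, bins, flanks, trimming, scale and gene position.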

Additional observations from a re-analysis of the deposited data

How the results depend on the processing

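The copy ratio of the low segment in profile D kept its direction under all 6 alternatives, from 0.886 to 0.891. The correlation of timing order was 0.902 by Spearman and up to 0.969 with 500 kb trimmed at both ends. It was 0.965 between the fitted borders and 0.947 there on the raw level, 2 settings chosen after seeing the data. The lower border began at 92593101 with profile A alone as the divisor and at 92508279 on the smoothed score, and the cause was not tested. On 100-kb bins the upper border was 99800000, the end of a bin. On the raw level, rescaled to mean 0 and SD 1, the score difference of D was -1.12 in place of -1.50, and the cause was not tested. Of 44 alternative values for the 22 named genes, 26 stayed inside the spread among profiles. On the rescaled raw level of its bin, the median score of Mzt1, Bora and Dis3, which share a bin, was 0.150, and the negative sign of their smoothed score therefore depended on the smoothing or the scale, which were not told apart. The median score of Gpc6 was -1.15 at its lower coordinate, since the gene is long. No paired analysis was possible because no column names its replicate. The depth is unknown, and small genes rest on 1 to 4 windows.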

Other observations

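The low segment was not the only stretch at which profile D stood apart. On chromosome 3, from 18600001 to 48500000 (29.9 Mb), the raw level of D averaged 1.72, against 1.89, 1.90, 1.91, 1.64 and 1.86 in A, B, C, E and F, so that there D was second lowest and E was lowest. On chromosome 17, from 39700001 to 94900000 (55.2 Mb), D averaged 2.07, against 1.95, 1.96, 1.97, 1.93 and 1.93, and was highest. Of 465 autosomal bins of D under 0.95 times the median of the others, 299 lay on chromosome 3 and 80 on chromosome 14.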
